A study of Canis lupus familiaris with 12 samples.

Results

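The genes TGM1, CLDN3, PODXL, KLK1, EPB41L5 and CRYGS, were followed in Mi/CMM1 cells, which derive from an oral melanoma of a dog. The genes were chosen from how the drug groups differed on these same arrays, and every probe assigned to a dog RefSeq transcript of 1 of them was read. That gave 9 probes for 6 genes, of 43603 probes and 832 named genes on the array. The study compared 4 groups of 3 one-colour arrays: cells given robenacoxib, cells given carprofen, cells given piroxicam, and control cells with no treatment, for which no vehicle is named. The drugs are nonsteroidal anti-inflammatory drugs, which block cyclooxygenases and so the making of prostaglandins. The sample labels give 156 µM robenacoxib, 779 µM carprofen and 116 µM piroxicam for 6 h, whereas the treatment protocol gives 116 µM carprofen, 779 µM piroxicam and 24 h, with robenacoxib at 156 µM in both. In either version the drugs' concentrations differ, so differences between drugs below are not at a matched dose. The replicates are called biological in the series design, but how separate the cultures were is not given, and all arrays come from 1 cell line.

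Most of these genes are known from epithelia. Epithelial cells form sheets sealed by tight junctions, carry a distinct apical surface and, in skin, cross-link proteins into a barrier. Cells that leave the epithelial state take these junctions apart under transcription factors such as SNAI2. TGM1 encodes the transglutaminase that cross-links the cornified envelope of skin, CLDN3 a claudin of tight junctions, and PODXL podocalyxin, a sialomucin of apical membranes and of kidney podocytes. KLK1 encodes tissue kallikrein, the protease that releases kinins from kininogen. EPB41L5 encodes a FERM-domain protein that, in mouse embryos, is needed for epithelial cells to become mesenchymal. CRYGS encodes gamma-S crystallin, a structural protein of the lens, and is not a gene of the epithelial barrier. In the RefSeq table the 6 genes lie on 6 different chromosomes.

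The epithelial name of this group could not be checked on the cells themselves, because 0 of 11 epithelial marker genes (such as CDH1, EPCAM and KRT8) had a named probe. Outside those 11, OCLN, DSG1, DSG3 and KRT1 had named probes, but none was well above background throughout a group. Junction and keratin genes that were tested are given below. Of 9 melanocyte markers 4 had named probes and 2 were tested. TYR (1 probe) and KIT (3 probes) were not well above background throughout any group. MITF, the master regulator of melanocytes, was well above background on all 12 arrays. The summed melanocyte signal, in units of each array's 75th percentile, was 0.738 to 0.758 with robenacoxib, 0.641 to 0.666 with carprofen, 0.673 to 0.708 with piroxicam and 0.7 to 0.714 in control. MITF makes up nearly all of it. MC1R, the melanocortin receptor gene and the other tested one, was not well above background on any piroxicam array or on robenacoxib 1. It was dim in control too, with signals of 33.1 to 54.8. Carprofen minus piroxicam was 1.82 for MC1R (limma adjusted p = 0.0125), against 1.69 with slide as a block (limma adjusted p = 0.0809). For MITF it was -0.13 (limma adjusted p = 0.00638). The 4 tested fibroblast markers (COL1A1, COL1A2, DCN and PDGFRB) summed to 70.6 to 71.6 with robenacoxib, 65.1 to 68.7 with carprofen, 68.9 to 72.4 with piroxicam and 74.3 to 76.6 in control. Nearly all of that sum is COL1A1 and COL1A2. PDGFRB went the other way and was higher with piroxicam than in control by 0.50 (limma adjusted p = 0.0239), against 0.11 with slide as a block (limma adjusted p = 0.821). In the same comparison DCN differed by -0.42 (limma adjusted p = 0.0174), against -0.64 with slide as a block (limma adjusted p = 0.125). COL1A2 differed by -0.10 (limma adjusted p = 0.0413), against -0.07 with slide as a block (limma adjusted p = 0.514), and COL1A1 by -0.0022 without passing. The part of these sums in the results was not tested. The 2 leukocyte markers summed to 0.0702 to 0.111 with robenacoxib, 0.097 to 0.116 with carprofen, 0.1 to 0.104 with piroxicam and 0.0793 to 0.107 in control, and the 1 endothelial marker lay between 1.21 and 1.46 on all arrays. In bulk RNA, fewer cells of a type and less RNA per cell cannot be told apart.

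The arrays lay on 3 slides, each scanned as a unit. The 3 robenacoxib arrays were on slide 3 with piroxicam 3, while piroxicam 1 and 2 were on slide 2 with carprofen 2 and 3, and carprofen 1 was on slide 1 with the controls. No slide carried controls beside piroxicam or beside robenacoxib, or robenacoxib beside carprofen. Between 66.3% and 80.1% of probes were well above background on an array. On the first principal component control 3 lay lowest (-32.3), with carprofen 3 next to it (-24.2). Piroxicam 3 lay highest (56.5), with piroxicam 1 next (27.4). Levels below are log2 values of the processed signal against each array's own 75th percentile, so a negative level is a probe dimmer than that percentile, and levels of different probes are not compared.

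On every one of the 12 arrays 7 of the 9 probes were well above background, and these were tested: 1 each for TGM1, CLDN3, PODXL, EPB41L5 and CRYGS, and 2 for KLK1. The other 2 PODXL probes were dim. Probe A_11_P078846 had signals of 2.88 to 29.2 and was well above background on 1 control array and 0 of 9 drug arrays. Probe A_11_P191088 had signals of 2.84 to 24.0 and was well above background on 1 robenacoxib and 1 carprofen array. PODXL thus rests on 1 probe, A_11_P0000020241, and no change is given for the other 2.

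**Figure D1:**
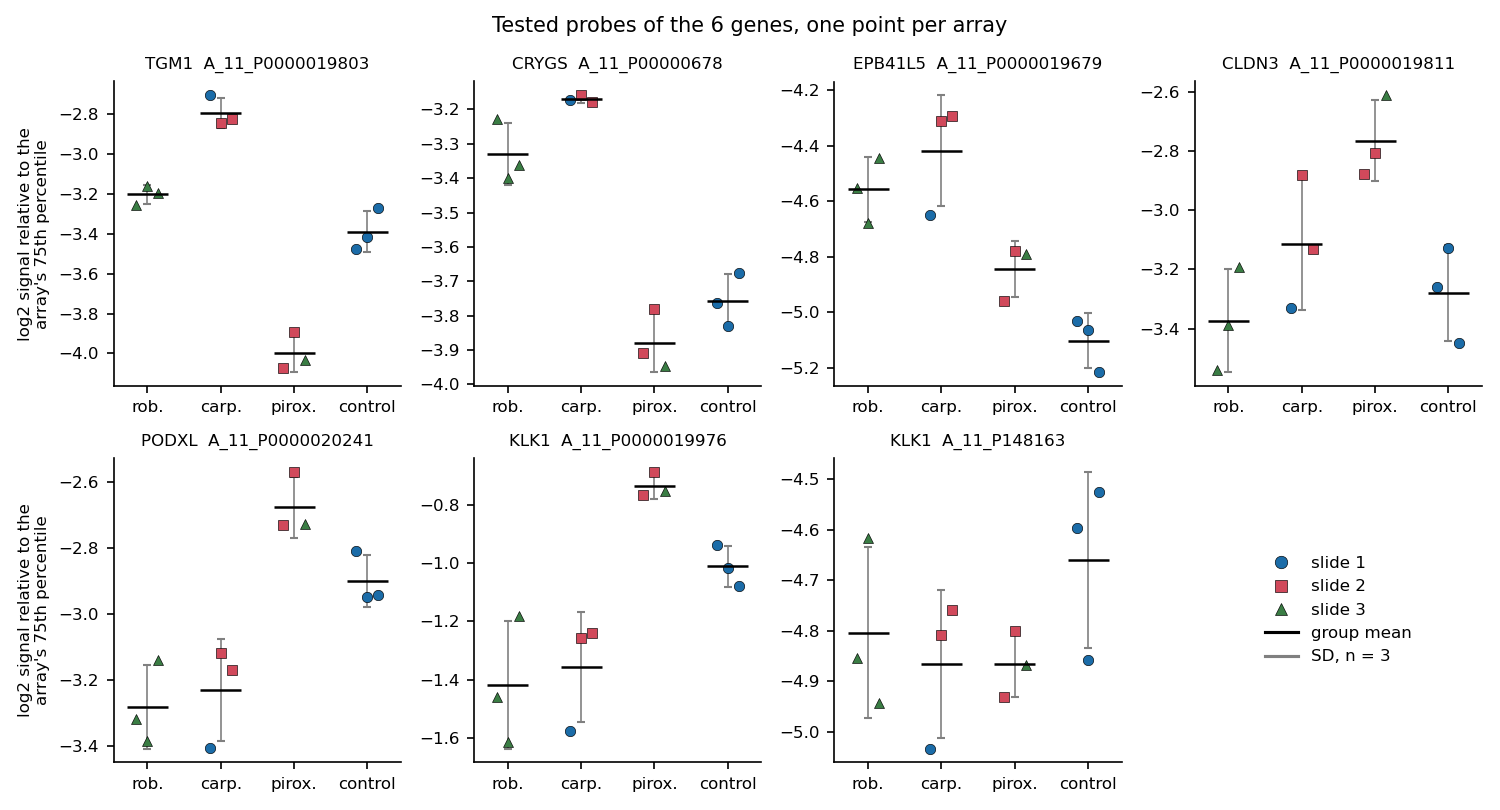
Levels of the 7 tested probes (y axis, log2 signal against each array's 75th percentile) on each array, by group (x axis) and slide (marker), with group means as black bars and SDs (n = 3) as grey bars. In the top row TGM1, CRYGS and EPB41L5 are lower with piroxicam than with either other drug, whereas CLDN3, PODXL and the brighter KLK1 probe are higher, and the dimmer KLK1 probe overlaps in all groups.

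With KLK1 read on its brighter probe, the 6 genes split into 2 patterns of 3. TGM1, CRYGS and EPB41L5 were lower with piroxicam than with both other drugs, and CLDN3, PODXL and the brighter KLK1 probe were higher. On the leading probe of each gene the piroxicam arrays did not overlap with those of robenacoxib or of carprofen. Because the drug groups were used to choose the genes, these values are a description, without a test. For the 7 tested probes, carprofen and piroxicam arrays did not overlap on 6, 3 higher and 3 lower with carprofen, where 23.4% of all tested probes were higher and 23.7% lower without overlap. Robenacoxib and piroxicam arrays also did not overlap on 6, again 3 higher and 3 lower, beside 21.3% and 20.7% of all tested probes.

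TGM1, the barrier transglutaminase, had the widest range of group means among the 6 leading probes. Its levels were -3.25, -3.16 and -3.19 with robenacoxib, -2.70, -2.84 and -2.82 with carprofen, -4.07, -3.89 and -4.03 with piroxicam, and -3.48, -3.42 and -3.27 in control. All 4 groups were apart from each other, in the order piroxicam, control, robenacoxib, carprofen from low to high. Carprofen exceeded piroxicam by 1.21 (SE 0.07), a 2.31-fold difference. Robenacoxib exceeded piroxicam by 0.80 (SE 0.07), or 1.74-fold. Against control, TGM1 differed by 0.19 with robenacoxib, by 0.60 with carprofen and by -0.61 with piroxicam (SE 0.07 each), so piroxicam and the other drugs lay on opposite sides of control.

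CRYGS, the lens crystallin gene, stood at -3.23, -3.40 and -3.36 with robenacoxib, -3.17, -3.16 and -3.18 with carprofen, -3.91, -3.78 and -3.95 with piroxicam, and -3.76, -3.83 and -3.68 in control. Piroxicam and control overlapped, and both lay below the other drugs. Carprofen exceeded piroxicam by 0.71 and robenacoxib exceeded it by 0.55 (SE 0.06 each). Against control the differences were 0.43 with robenacoxib, 0.59 with carprofen and -0.12 with piroxicam (SE 0.06 each).

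EPB41L5, the FERM-domain gene, had signals of 55.9 to 126, where the lowest signals well above background on an array were 9.27 to 28.5. Its levels were -4.55, -4.68 and -4.44 with robenacoxib, -4.65, -4.31 and -4.29 with carprofen, -4.96, -4.78 and -4.79 with piroxicam, and -5.03, -5.06 and -5.22 in control. All 9 drug arrays lay above the 3 controls, and piroxicam lay between control and the other drugs. Carprofen exceeded piroxicam by 0.43 and robenacoxib exceeded it by 0.29 (SE 0.10 each). Against control the differences were 0.55 with robenacoxib, 0.69 with carprofen and 0.26 with piroxicam (SE 0.10 each).

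Of the other 3 genes, CLDN3 had the widest spread between replicates. This claudin gene stood at -3.54, -3.39 and -3.19 with robenacoxib, -3.33, -2.88 and -3.13 with carprofen, -2.88, -2.81 and -2.61 with piroxicam, and -3.26, -3.13 and -3.45 in control. Only the piroxicam group was apart from all others, and carprofen 2 came within rounding of piroxicam 1. CLDN3 differed by -0.35 between carprofen and piroxicam and by -0.61 between robenacoxib and piroxicam (SE 0.14 each). Piroxicam exceeded control by 0.52 (SE 0.14), whereas robenacoxib and carprofen differed from control by -0.09 and 0.17 with overlapping arrays.

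PODXL, the apical sialomucin gene, stood at -3.32, -3.38 and -3.14 with robenacoxib, -3.40, -3.12 and -3.17 with carprofen, -2.73, -2.57 and -2.73 with piroxicam, and -2.81, -2.95 and -2.94 in control. Robenacoxib and carprofen overlapped, control lay above both, and piroxicam lay above control. PODXL differed by -0.55 between carprofen and piroxicam and by -0.60 between robenacoxib and piroxicam (SE 0.09 each). Against control it differed by -0.38 with robenacoxib, -0.33 with carprofen and 0.22 with piroxicam (SE 0.09 each).

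KLK1, the kallikrein gene, had 2 tested probes, which disagreed. The brighter, A_11_P0000019976, stood at -1.46, -1.61 and -1.18 with robenacoxib, -1.58, -1.26 and -1.24 with carprofen, -0.76, -0.69 and -0.75 with piroxicam, and -0.94, -1.02 and -1.08 in control. Its groups came in the same order as those of PODXL. It differed by -0.62 between carprofen and piroxicam, by -0.68 between robenacoxib and piroxicam and by 0.28 between piroxicam and control (SE 0.12 each). The dimmer probe, A_11_P148163, averaged -4.80 with robenacoxib, -4.87 with carprofen, -4.87 with piroxicam and -4.66 in control, with SDs of 0.17, 0.15, 0.07 and 0.17 (n = 3 each). No neighbouring groups were apart on that probe, and it differed by 0.06 (SE 0.11) between robenacoxib and piroxicam. Which of the 2 probes follows the KLK1 transcript was not tested.

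The difference between robenacoxib and carprofen was not what set piroxicam apart, and it was tested in the fit over all 31996 tested probes. The arrays of both drugs still served to choose the genes, so the p-values below are not independent of that choice. TGM1 was lower with robenacoxib than with carprofen by a log2 difference of -0.41 (SE 0.07, 95% interval -0.56 to -0.26, limma adjusted p = 0.00713), with all 3 robenacoxib arrays below all 3 carprofen arrays. It was the 1 probe of 7 that passed, where 4.42% of all tested probes passed as higher and 3.74% as lower. Without overlap, 2 of 7 were lower and 0 higher, beside 12.5% and 14.6% of all tested probes. With slide as a block the TGM1 difference was -0.32 (limma adjusted p = 0.314), and carprofen and robenacoxib share no slide. The TGM1 call also ended with normexp and 75th-percentile scaling (-0.25). Of all tested probes 97 then passed as higher and 113 as lower, and with slide as a block 41 and 40. In the fit reported here these counts were 1413 and 1196. CRYGS, the second probe without overlap, differed by -0.16 (interval -0.29 to -0.03, limma adjusted p = 0.133). CLDN3 differed by -0.26 (interval -0.57 to 0.04, limma adjusted p = 0.286) and EPB41L5 by -0.14 (interval -0.37 to 0.10, limma adjusted p = 0.469). The intervals of PODXL (-0.25 to 0.15) and of the brighter KLK1 probe (-0.32 to 0.20) were centred near 0, and that of the dimmer KLK1 probe ran from -0.19 to 0.31.

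Robenacoxib and control arrays did not overlap on 5 of 7 probes (3 higher, 2 lower, beside 16.6% and 25% of all tested probes), nor did those of carprofen and control (3 higher, 2 lower, beside 19.5% and 27.5%). For both drugs the higher genes were TGM1, CRYGS and EPB41L5, and the lower ones PODXL and, on its brighter probe, KLK1. Piroxicam and control arrays did not overlap on 5 of 7 probes (4 higher, 1 lower, beside 21.2% and 26.5%): EPB41L5, CLDN3, PODXL and the brighter KLK1 probe were higher and TGM1 lower, while the dimmer KLK1 probe differed by -0.21 (SE 0.11) with overlap. All 3 comparisons share the control arrays. With spike-in scaling, PODXL and the brighter KLK1 probe with carprofen stood at 0.0141 and -0.0029 against control, so being lower there rests on the scaling. EPB41L5 was higher than control with each drug as scaled here, but with slide as a block its difference was 0.12 (SE 0.18) with robenacoxib and -0.11 (SE 0.15) with piroxicam, and with spike-in scaling CLDN3 was also above control with each drug. No slide held both robenacoxib and control, and with slide as a block that comparison also moved to -0.65 (SE 0.28) for CLDN3, -0.71 (SE 0.24) for the brighter KLK1 probe and -0.39 (SE 0.26) for the dimmer one, to 0.37 (SE 0.15) for TGM1, and to -0.56 (SE 0.18) for PODXL, against 0.52 (SE 0.14) for CRYGS.

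**Figure D2:**
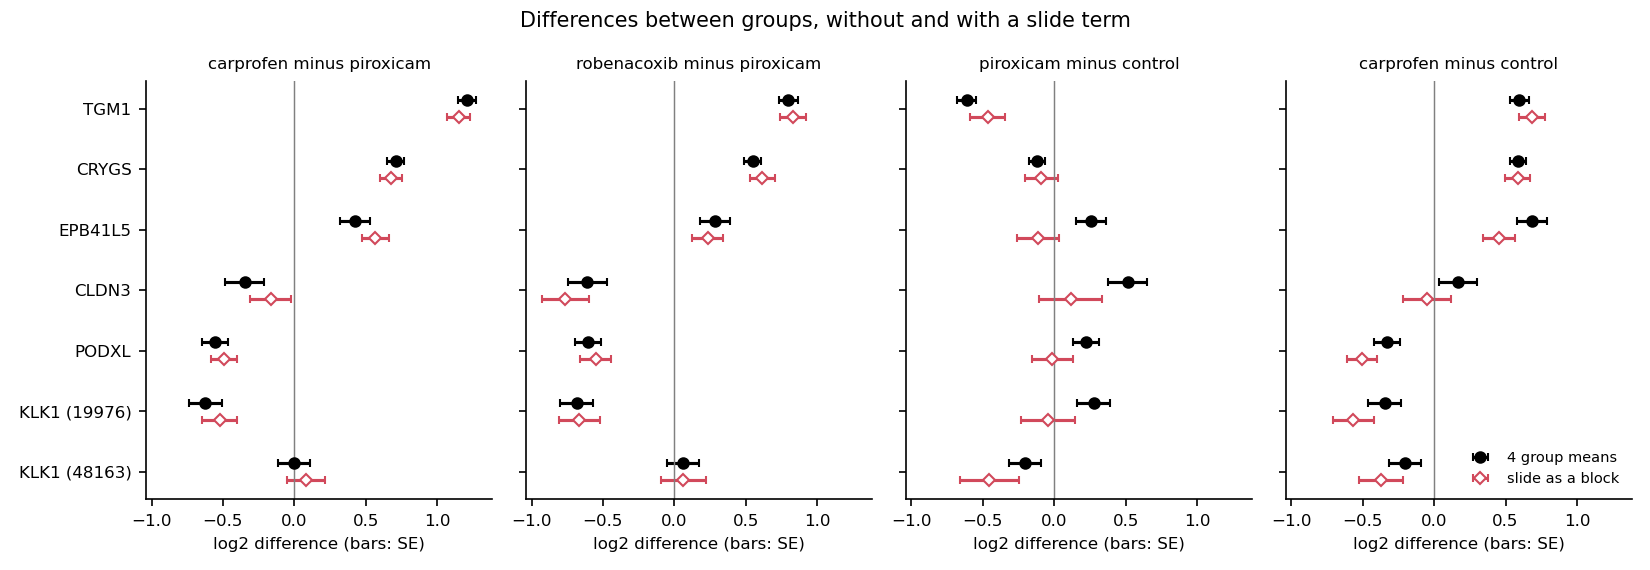
Log2 differences of the 7 tested probes (x axis, bars show the SE) in 4 comparisons, from the model of 4 group means (black circles) and with slide as a block (open red diamonds); KLK1 is shown by the last digits of its 2 probe names. The 6 leading probes keep their side of 0 in both comparisons with piroxicam, on the arrays that served to choose the genes. For piroxicam minus control, PODXL, the brighter KLK1 probe and EPB41L5 cross 0 with the slide term.

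The comparisons with piroxicam could be repeated within a slide. On slide 2, carprofen 2 and 3 exceeded piroxicam 1 and 2 by 1.15 for TGM1, 0.68 for CRYGS and 0.57 for EPB41L5, and differed from them by -0.16 for CLDN3, -0.49 for PODXL and -0.52 for the brighter KLK1 probe. On slide 3, the 3 robenacoxib arrays exceeded piroxicam 3 by 0.83 for TGM1, 0.62 for CRYGS and 0.23 for EPB41L5, and differed from it by -0.76 for CLDN3, -0.55 for PODXL and -0.67 for the brighter KLK1 probe. On each slide 6 of 7 probes did not overlap, beside 66.2% of all tested probes on slide 2 and 70.6% on slide 3. These are the arrays that served to choose the genes. For both comparisons the fit with slide as a block gave the same differences, so it adds no further check. On slide 1, carprofen 1 differed from the 3 controls by 0.68 for TGM1, 0.59 for CRYGS, 0.45 for EPB41L5, -0.51 for PODXL and -0.57 for the brighter KLK1 probe, while CLDN3 lay within the controls (-0.05).

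Piroxicam and control had no slide in common. The 2 carprofen arrays of slide 2 exceeded carprofen 1 on slide 1 by 0.32 for CLDN3, 0.26 for PODXL, 0.33 for the brighter KLK1 probe, 0.25 for the dimmer one and 0.35 for EPB41L5, against -0.13 for TGM1. The 1 piroxicam array of slide 3 differed from the 2 of slide 2 by 0.23 for CLDN3, -0.08 for PODXL, -0.03 for the brighter KLK1 probe and 0.08 for EPB41L5. With so few arrays, slide and replicate spread cannot be told apart here. With slide as a block, piroxicam minus control was -0.47 (SE 0.12) for TGM1, 0.11 (SE 0.22) for CLDN3, -0.01 (SE 0.14) for PODXL, -0.04 (SE 0.19) for the brighter KLK1 probe, -0.45 (SE 0.20) for the dimmer one, -0.11 (SE 0.15) for EPB41L5 and -0.09 (SE 0.11) for CRYGS. In that fit carprofen 1 is the only array linking slide 1 to the others, and piroxicam 3 the only one linking slide 3. The lower TGM1 level with piroxicam kept its direction there. The higher levels of PODXL, the brighter KLK1 probe and EPB41L5 over control did not, with differences within 1 SE of 0. That of CLDN3 kept its sign, but at 0.11 (SE 0.22) it was also within 1 SE of 0.

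Other genes of the same pathways were sparse on the array, since 3.01% of probes could be named. Over 11 pathway lists without the 6 members, 18 genes were tested. Between carprofen and piroxicam 1 of the 18 was called higher and 3 lower, beside 18.6% and 18.9% of all tested probes and 32.4% of 608 other named genes in either direction. Between robenacoxib and piroxicam 2 were higher and 2 lower, beside 13.9% and 13.2% of all probes and 23% of named genes. Between piroxicam and control 2 were higher and 2 lower (11.9% and 16.1% of all probes, 27.1% of named genes). Carprofen against control gave 2 higher and 3 lower (13.3% and 19.5%, 34.5% of named genes), and robenacoxib against control 1 higher and 1 lower (9.57% and 12.6%, 23.2% of named genes). Robenacoxib against carprofen gave 1 higher, beside 8.55% of named genes. The median difference of the 18 genes was 0.05 between carprofen and piroxicam, -0.11 between robenacoxib and piroxicam and 0.04 between piroxicam and control, where those of all tested probes were 0.01, -0.000838 and -0.02. The calls are limma's, adjusted by Benjamini-Hochberg over all tested probes.

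SNAI2, a repressor of epithelial junction genes that also acts in melanocytes, was higher with piroxicam than in every other group. Its levels were 2.51, 2.52 and 2.56 with robenacoxib, 2.50, 2.42 and 2.43 with carprofen, 2.80, 2.85 and 2.83 with piroxicam, and 2.50, 2.52 and 2.49 in control. Carprofen minus piroxicam was -0.38 (SE 0.03, limma adjusted p = 1.27e-05) and robenacoxib minus piroxicam was -0.30 (SE 0.03, limma adjusted p = 0.000105). Piroxicam exceeded control by 0.33 (SE 0.03, limma adjusted p = 8.8e-05), and by 0.41 with slide as a block (limma adjusted p = 0.00924). The other tested mesenchymal gene, S100A4, a calcium-binding protein, differed from control by -0.15 with robenacoxib, -0.19 with carprofen and -0.13 with piroxicam relative to the array, but by 0.15, 0.16 and 0.05 when the arrays were scaled to spiked-in transcripts. With slide as a block the differences were -0.07 with robenacoxib (limma adjusted p = 0.698) and -0.10 with piroxicam (limma adjusted p = 0.401), and without piroxicam 3 that with piroxicam was -0.11 and did not pass.

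Of the 6 tested lens crystallin genes, 1 rose and 1 fell with carprofen relative to piroxicam, and also with robenacoxib relative to piroxicam. CRYBA1, a beta-crystallin gene, stood at -3.75, -3.81 and -3.69 with robenacoxib, -3.52, -3.76 and -3.61 with carprofen, -4.26, -4.22 and -4.21 with piroxicam, and -4.23, -4.26 and -4.02 in control. Like CRYGS, it was near control with piroxicam and higher with the other drugs: carprofen minus piroxicam was 0.60 (SE 0.07, limma adjusted p = 0.000215) and robenacoxib minus piroxicam 0.48 (SE 0.07, limma adjusted p = 0.00134). Within a slide these differences were 0.55 and 0.46. CRYBA4, another beta-crystallin gene, ran the other way, at -0.30 (SE 0.04, limma adjusted p = 0.000275) between carprofen and piroxicam and -0.18 (SE 0.04, limma adjusted p = 0.00824) between robenacoxib and piroxicam. The second of these calls ended with both normexp settings, with spike-in scaling (-0.05) and in the authors' values. The other 4, CRYAA, CRYBB2, CRYGA and CRYGD, did not pass in any comparison.

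**Figure D3:**
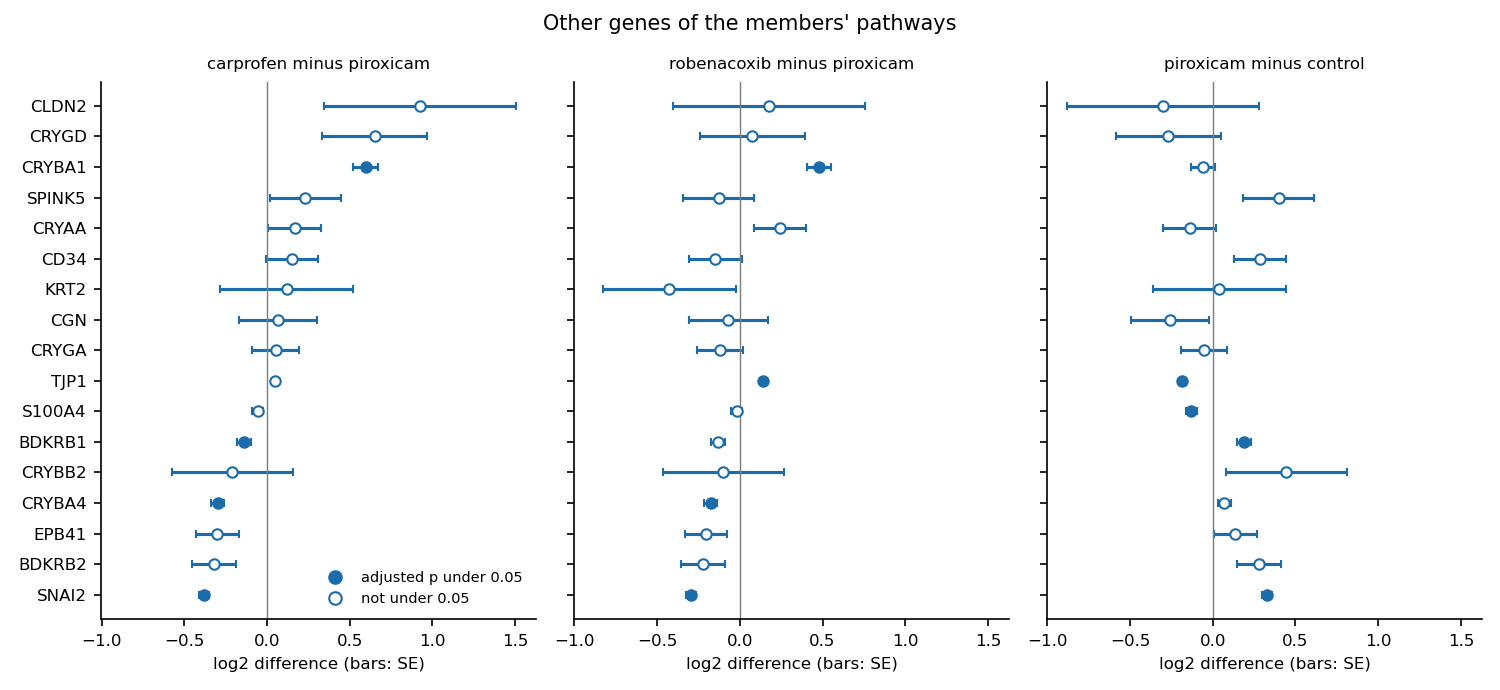
Log2 differences (x axis, bars show the SE) of other pathway genes in 3 comparisons, filled where limma's adjusted p was under 0.05. CRYBA1 is filled and above 0 in both comparisons with piroxicam, SNAI2 and CRYBA4 are filled and below 0, and most genes are not filled.

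Among 4 tested tight junction genes, TJP1, which encodes the scaffold protein ZO-1, was the 1 called. It stood at 2.37, 2.40 and 2.37 with robenacoxib, 2.28, 2.31 and 2.28 with carprofen, 2.24, 2.22 and 2.25 with piroxicam, and 2.42, 2.43 and 2.42 in control. Robenacoxib exceeded piroxicam by 0.14 (SE 0.02, limma adjusted p = 0.00123), and carprofen minus piroxicam did not pass. Piroxicam minus control was -0.18 relative to the array (SE 0.02, limma adjusted p = 0.000346) and -0.01 with spike-in scaling. Carprofen minus control was -0.13 (limma adjusted p = 0.00157) relative to the array and 0.21 with spike-in scaling, so its direction rests on the scaling. Robenacoxib exceeded carprofen by 0.09 (limma adjusted p = 0.0335), a call lost with slide as a block (0.07, limma adjusted p = 0.536) and without carprofen 1, carprofen 3 or any 1 robenacoxib array (0.08 to 0.10). CLDN2 and CGN did not pass in any comparison.

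Of the 2 tested genes of the kallikrein and kinin list, BDKRB1, a kinin receptor gene, stood at -1.24, -1.26 and -1.18 with robenacoxib, -1.33, -1.20 and -1.17 with carprofen, -1.05, -1.09 and -1.14 with piroxicam, and -1.29, -1.29 and -1.27 in control. Piroxicam exceeded control by 0.19 (SE 0.04, limma adjusted p = 0.0114), against 0.07 with slide as a block (limma adjusted p = 0.508) and 0.02 to 0.03 with the normexp settings and in the authors' values, where it did not pass. Carprofen minus piroxicam was -0.14 (SE 0.04, limma adjusted p = 0.0299) and 0.03 with spike-in scaling, and it did not pass with the normexp settings, in the authors' values, without the filter on dim probes or with a replicate block. Without piroxicam 1, piroxicam 2 or carprofen 1 it was -0.12, -0.14 and -0.09 and no longer passed. BDKRB2, another kinin receptor gene, did not pass in any comparison. SPINK5, a protease inhibitor of skin and the 1 tested gene of 19 in the cornified envelope list, exceeded control by 0.63 with carprofen (SE 0.21, limma adjusted p = 0.0494), and by 0.39 with slide as a block (limma adjusted p = 0.447). That call was also lost without any 1 control array, without carprofen 2 and without carprofen 3 (0.56 to 0.64). The single tested genes of the keratin (KRT2), apical membrane (CD34) and FERM (EPB41) lists did not pass in any comparison. The lists of epithelial identity and transglutaminases had 0 genes with a named probe. That of adherens junctions had 2, DSG1 and DSG3, which were too dim to be tested.

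**Figure D4:**
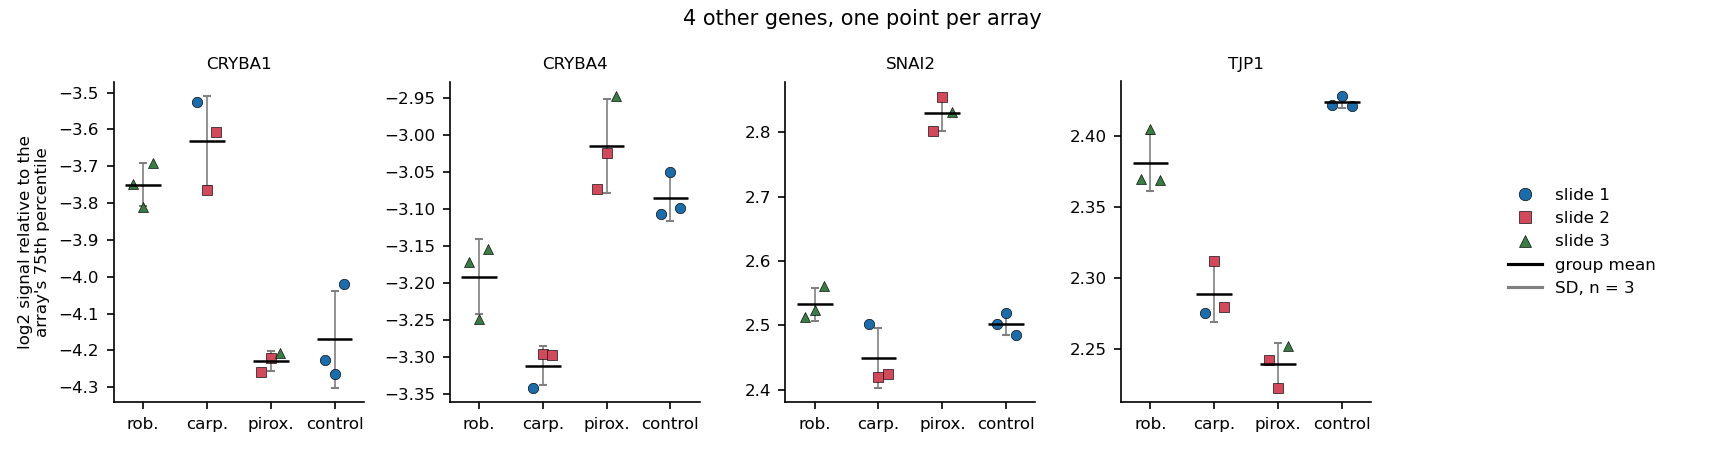
Levels of CRYBA1, CRYBA4, SNAI2 and TJP1 (y axis, log2 signal against each array's 75th percentile) on each array, by group (x axis) and slide (marker), with group means and SDs (n = 3). The 3 piroxicam arrays lie below both other drugs for CRYBA1 and above all other groups for SNAI2.

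Likeness was measured as the root-mean-square difference between a gene's centred levels and a centred profile over the 12 arrays, for 606 named genes. The mean profile of the 6 members was nearly flat (root mean square 0.108), because the 2 patterns run in opposite directions. The 5 genes nearest to it were PDE6G (0.049), B4GALT4 (0.067), NOS3 (0.071), NPC1L1 (0.072) and FLT3LG (0.075). A profile for each pattern was a choice made after seeing the data. The nearest to TGM1, CRYGS and EPB41L5 (root mean square 0.312) were SLC3A1 (0.098) and CRYBA1 (0.106). The nearest to CLDN3, PODXL and the brighter KLK1 probe (root mean square 0.261) were RARA (0.144) and CELA1 (0.144). Taken singly, CRYGS was nearest to CRYBA1 (0.089), TGM1 to HGFAC (0.095) and then PTGS2 (0.126), EPB41L5 to CYP3A12 (0.109), PODXL and the brighter KLK1 probe to RHBG (0.125 and 0.151), and CLDN3 to CASR (0.160). The root mean squares of these single profiles were 0.299 for CRYGS, 0.441 for TGM1, 0.287 for EPB41L5, 0.265 for PODXL, 0.303 for KLK1 and 0.274 for CLDN3. HGFAC was dim, with an average of -6.16 with piroxicam. SLC3A1 averaged -2.85 with robenacoxib, -2.57 with carprofen, -3.21 with piroxicam and -3.05 in control. All profiles come from the same 12 arrays, so these distances are a description.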

How the data were processed

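Intensity was measured per spot: the deposited scanner files come, per the file headers, from Feature Extraction 10.7.3.1 (protocol GE1_107_Sep09), with background removed on each array and no scaling across arrays. The authors' deposited value table, for which the submitters' processing notes name limma 3.24.15, was read as log2 values from its numbers and served as an alternative. Here R 4.3.3, limma 3.58.1 and data.table version 1.17.8 were used. The log2 processed signal was set relative to each array's 75th percentile, without control or outlier-flagged spots, and replicate spots were averaged. Tests covered the 31996 of 43603 probes that were well above background throughout 1 or more groups. One limma model with 4 group means gave differences, standard errors and Benjamini-Hochberg adjusted p-values (threshold 0.05). Normexp alternatives (offset 50) used the median signals, since the scanner files used here hold no mean signal. Other alternatives were quantile normalization, spike-in scaling over 8 probes, other filters, slide and replicate blocks, and leaving out arrays. Probes were named through a RefSeq table (dog assembly UU_Cfam_GSD_1.0, names alone), which covered 1313 probes. A list gene was read on its brightest tested probe, and 1 counted list gene is not reported here by name. Named were all member probes, up to 3 called genes a list, and the 5 genes most like the members. The members and lists were chosen with earlier results of these data known. No count depth exists for arrays, and 3 arrays a group limit the precision. Scripts were tested on simulated data.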

Additional observations from a re-analysis of the deposited data

How the results depend on the processing

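Over the 16 alternatives, the 6 leading probes kept their direction in both comparisons with piroxicam. Choosing the genes on these arrays had favoured that. Carprofen minus piroxicam ran from 0.85 to 1.38 for TGM1, 0.47 to 0.88 for CRYGS, 0.16 to 0.60 for EPB41L5, -0.47 to -0.16 for CLDN3, -0.62 to -0.38 for PODXL and -0.68 to -0.45 for KLK1. Without both control 3 and piroxicam 3, an alternative added after seeing the data, CLDN3 differed by 0.35 between piroxicam and control, and the calls of S100A4 with piroxicam and SPINK5 with carprofen ended. Scaling to the spiked-in transcripts moved differences up by 0.3 for robenacoxib, 0.344 for carprofen and 0.175 for piroxicam against control. With slide as a block, piroxicam minus control turned to -0.0125 for PODXL, -0.043 for the brighter KLK1 probe and -0.11 for EPB41L5. With spike-in scaling, carprofen minus control turned to 0.0141 for PODXL, 0.12 for CRYBA4, 0.16 for S100A4 and 0.21 for TJP1, robenacoxib minus control to 0.15 for S100A4, piroxicam minus control to 0.0453 for S100A4, and carprofen minus piroxicam to 0.0296 for BDKRB1. For piroxicam minus control S100A4 also turned, to 0.0176 with normexp plus quantile normalization and to 0.0172 in the authors' values. The cause of these turns was not tested.

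Of member probes, 1 passed between robenacoxib and carprofen, against 0 with normexp and 75th-percentile scaling, 0 with slide as a block and 2 with spike-in scaling, where 3 member probes instead of 5 had no overlap between robenacoxib and control. Of the 18 related genes, 5 passed between carprofen and control, against 3 with quantile normalization, 2 with normexp and quantile normalization, 11 with spike-in scaling and 2 in the authors' values. Of all 31996 tested probes, 4266 passed there as higher and 6228 as lower, against 24077 and 80 with spike-in scaling. With quantile normalization they were 4216 and 5241, with normexp and quantile normalization 3318 and 3502, and in the authors' values 3209 and 3263. Between piroxicam and control 4 passed, against 2 with either normexp setting, 7 with spike-in scaling, 2 in the authors' values and 2 with slide as a block. Over all tested probes 3805 passed as higher and 5145 as lower, against 12799 and 954 with spike-in scaling and 805 and 824 with slide as a block. Between robenacoxib and carprofen 1 passed, against 0 with either normexp setting, spike-in scaling, the authors' values, no filter on dim probes, slide as a block and a replicate block, and 0 to 1 with 1 array left out (0 without carprofen 3 or any 1 robenacoxib array). Between robenacoxib and control 2 passed, against 1 with quantile normalization, 10 with spike-in scaling, 0 with slide as a block, and 2 to 4 with 1 array left out (4 without robenacoxib 2). Over all tested probes 3062 passed as higher and 4044 as lower, against 21685 and 151 with spike-in scaling and 327 and 124 with slide as a block. Same-numbered arrays did not deviate together (correlations of -0.45 to 0.2, and 1 of 12 arrays correlated best with its own number), so the replicate block is an alternative only. With it 1 member probe still passed between robenacoxib and carprofen (TGM1), where 710 of all tested probes passed as higher and 665 as lower. SNAI2 and CRYBA1 kept their calls against piroxicam in every alternative run.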
